A study of Mus musculus with 24 samples.

Results

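The liver of mice given acetaminophen was compared with the liver of mice given acetaminophen together with granulocyte colony-stimulating factor (G-CSF), by sequencing of small RNA. Acetaminophen is a painkiller that kills hepatocytes in overdose, and G-CSF is a cytokine that drives the formation of neutrophils and their release from bone marrow. One group received acetaminophen at 500 mg/kg, the other received acetaminophen at 500 mg/kg and G-CSF at 100 µg/kg, and the liver of untreated mice is given beside both. The sources used here do not give the strain, sex, age or number of the mice, or the time between dosing and collection. Each group had 2 libraries, 1 from each of the Ion Torrent PGM and Proton instruments, and the deposited tables hold them combined as 1 column. There are therefore no replicates, and a difference between 2 columns compares those libraries and not the treatments as such. Described here are the 221 of 1186 miRNA hairpin entries with 100 or more counts in either the acetaminophen or the G-CSF column. They held 98.9% of all hairpin counts of the acetaminophen column and 99.4% of those of the G-CSF column. The liver label was borne out by its defining marker: mir-122, the hairpin of the leading hepatocyte miRNA, had the largest share in each of the 3 liver columns.

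A miRNA hairpin is a folded precursor RNA from which Dicer cuts a short duplex. The strand that is kept, the mature miRNA, pairs through its seed, bases 2 to 8 from the 5′ end, with messenger RNAs and represses them. miRNAs that share a seed share most predicted targets and are treated as a family. Many miRNAs are made almost entirely by certain cell types, such as miR-122 by hepatocytes, miR-451a by red blood cells and miR-223 by neutrophils, so that the small RNA of a piece of liver carries the mix of cells and blood in it. In such bulk tissue fewer cells of a type and less RNA per cell cannot be told apart.

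Mature sequences behind a selection of the differences described below are shown first, grouped by direction, with the seed in capitals. They are from RefSeq with the mouse build GRCm38.p6, and the set used held no sequence for miR-122-5p, the most abundant. The first 3 belong to hairpins with lower shares with G-CSF added and mark red blood cells (miR-451a and miR-144-3p, at chr11:78073186-78073207 and chr11:78073047-78073066, plus strand, within no other annotated gene) and blood leukocytes (miR-142a-3p, at chr11:87756903-87756925, plus strand, in an intron of the long noncoding gene Mir142hg).
miR-451a: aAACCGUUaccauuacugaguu
miR-144-3p: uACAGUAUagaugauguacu
miR-142a-3p: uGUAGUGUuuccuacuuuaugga
The next group belongs to hairpins with higher shares with G-CSF added. It opens with 4 let-7 miRNAs of the seed GAGGUAG, followed by the pair of miR-103 and miR-107 with the seed GCAGCAU.
let-7a-5p: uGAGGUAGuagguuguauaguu
let-7c-5p: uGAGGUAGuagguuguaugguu
let-7d-5p: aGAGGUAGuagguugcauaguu
let-7f-5p: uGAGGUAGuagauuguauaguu
miR-103-3p: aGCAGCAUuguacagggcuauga
miR-107-3p: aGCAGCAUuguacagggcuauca
miR-31-5p: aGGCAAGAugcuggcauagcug
miR-34a-5p: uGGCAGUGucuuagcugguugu
miR-22-3p: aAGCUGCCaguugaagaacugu
miR-191-5p: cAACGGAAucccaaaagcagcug
miR-221-3p: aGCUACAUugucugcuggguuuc
miR-222-3p: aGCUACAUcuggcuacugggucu
Counted from 1 at the 5′ end, let-7c-5p differs from let-7a-5p by A19G, let-7f-5p by G12A and let-7d-5p by U1A and U16C, and miR-107-3p differs from miR-103-3p by G22C. Reads of such similar sequences cannot always be told apart, and some of the entries below have nearly the same counts. The last pair is shown because its members share the seed GUAAACA but their hairpins differed: miR-30c-5p, made from a hairpin in an intron of Nfyc on chromosome 4 and from another on chromosome 1, and miR-30a-5p, from chr1:23272274-23272295, plus strand.
miR-30c-5p: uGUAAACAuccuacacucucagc
miR-30a-5p: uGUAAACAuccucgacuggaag

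The columns differed widely in depth, which sets how well each value is known. The hairpin table held 111316 counts in the acetaminophen column, 1095868 in the G-CSF column and 1307523 in the untreated column, and the table of mature miRNAs held 19695, 43699 and 49330 in the same order. Hairpin counts were 5.65 times the mature counts in the acetaminophen column, against 25.1 times in the G-CSF column and 26.5 times in the untreated column. This held hairpin by hairpin: in 133 of the 134 hairpins with 20 or more mature counts in either column the value was lower in the acetaminophen column, with medians of 6.11, 23.2 and 27.1. The acetaminophen column thus stands apart from both others in how reads fell to hairpins and mature miRNAs, and the part of this in the differences below was not tested. The acetaminophen column also held 58 counts of 4 hairpins typical of pancreas (mir-216a, mir-216b, mir-217 and mir-375, with 5, 21, 15 and 17), an organ that lies next to the liver. Their summed share was 0.0521% there, 0.000639% in the G-CSF column and 0.000535% in the untreated column, which held 7 counts each, with mir-216a and mir-216b at 0 in the G-CSF column. The part of this in the differences was not tested either. Across the 126 hairpins with 100 or more counts in both treated columns, the rank correlation of shares (Spearman) was 0.83 between the acetaminophen and the G-CSF column, 0.69 between the untreated and the acetaminophen column and 0.85 between the untreated and the G-CSF column.

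Each hairpin was expressed as a share of its column's hairpin counts, and the ratio of the 2 shares, with G-CSF over without, carries an exact 95% interval that covers counting error only. A hairpin is called higher or lower when this ratio is at least 2 or at most 0.5. Of the 221 hairpins, 61 (27.6%) were higher with G-CSF added, 28 (12.7%) were lower and 132 lay within 2-fold, 40.3% past the limit in all. The median log2 ratio was 0.42, with 136 hairpins above 0 and 85 below. Shares are parts of a whole, so that a lower share of an abundant hairpin goes with higher shares of others. With median-of-ratios size factors, which set the typical hairpin to no difference (a shift of -0.41 log2), 29 were higher and 41 lower, so 41.4% of calls were higher in place of 68.5%. With totals that leave out mir-122 and the red blood cell hairpins, chosen after seeing the data, 40 were higher and 30 lower. The balance of higher and lower calls thus depended on the scaling. Each scaling shifts all ratios by the same factor, too small here to turn a higher call into a lower one or back.

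The count limit of 100 does not treat the columns alike. It corresponds to a share of 0.0898% in the acetaminophen column and of 0.00913% in the G-CSF column, which was 9.84 times deeper. The limit was reached in both columns by 126 hairpins, of which 19 (15.1%) were higher and 22 (17.5%) lower, with a median log2 ratio of 0.01. It was reached in the G-CSF column alone by 93 hairpins, 42 of them higher and 4 lower (49.5% past the limit). A hairpin that enters by that column alone is favoured to be higher, so nothing is read from this count. It was reached in the acetaminophen column alone by 2, mir-615 and mir-3066, both lower. Just inside the limit lay mir-5099 (33 counts with acetaminophen, ratio 0.329), mir-299b (3 and then 115 with G-CSF added, ratio 3.89) and mir-200c (28 and 116, ratio 0.421). Just outside it lay mir-6538 (97 and 72, ratio 0.0754), mir-429 (18 and 96, ratio 0.542) and mir-877 (7 and 95, ratio 1.38). In 31 groups with 69 members, hairpins of like sequence or name had counts within 10% of each other in all 3 liver columns, so that they may not be separate measurements. With each group taken once, 183 entries remained, 55 higher and 26 lower.

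**Figure D1:**
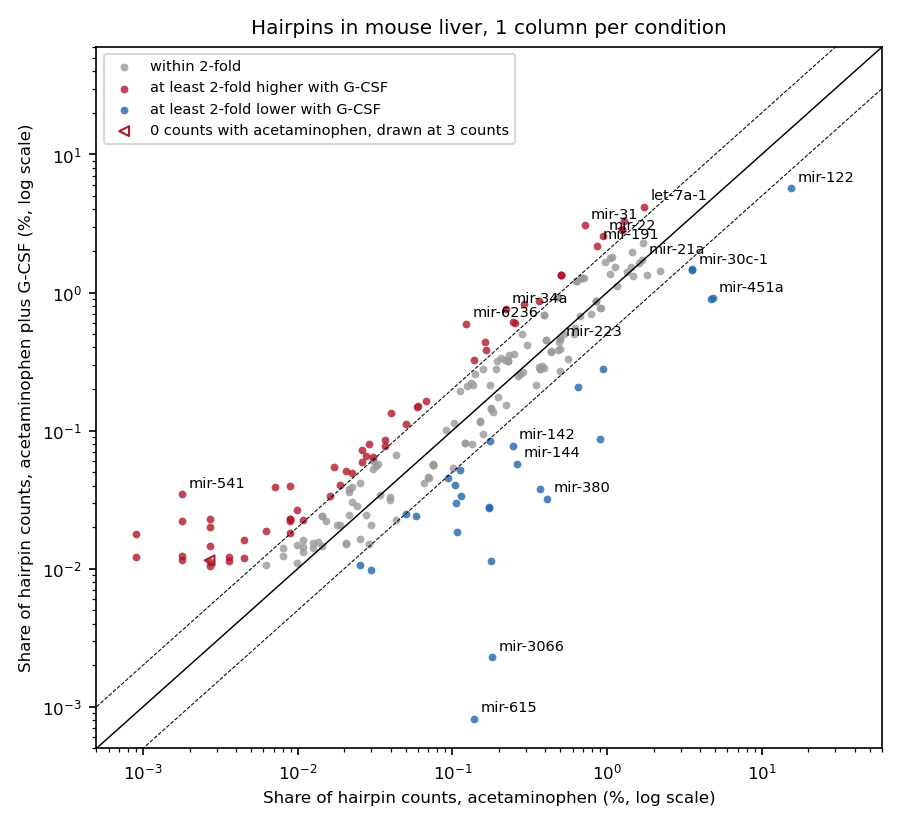
Share of hairpin counts with acetaminophen (x axis, %, log scale) and with acetaminophen plus G-CSF (y axis, %, log scale) for the 221 hairpins, 1 point each. The solid line marks equal shares and the dashed lines a 2-fold difference. Red points are the 61 higher hairpins, blue points the 28 lower ones and grey points the 132 within 2-fold, and the open triangle is mir-329, with 0 counts in the acetaminophen column, drawn at the share of 3 counts. The lower hairpins reach from mir-122, at 15.6% and 5.69%, down to mir-615, and the highest shares among the higher ones are those of let-7a-1 and let-7a-2.

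Hepatocyte miRNAs together took a smaller share with G-CSF added. mir-122, the only one of them past 2-fold, made up most of that sum and of its difference. mir-122, which makes up much of the miRNA of a hepatocyte and acts on cholesterol and lipid metabolism, had 17327 counts (15.6%) with acetaminophen, 62321 (5.69%) with G-CSF added and 9.56% in untreated liver. It was the highest in the acetaminophen column and the lowest in the G-CSF column, 2.74-fold lower (2.69 to 2.78). Mature miR-122 counts gave the same direction, 7927 with acetaminophen and 5574 with G-CSF added, a ratio of 0.317 (0.306 to 0.328). The other hepatocyte-enriched hairpins were within 2-fold. mir-192 stood at 1.44% with acetaminophen and 1.53% with G-CSF added, a ratio of 1.06, and its near twin mir-215 at 1.35% and 1.42%, a ratio of 1.05. mir-194-1, mir-194-2 and mir-802 had ratios of 0.822, 0.883 and 0.603. Of the 5 hairpins of the list 1 was lower and 0 higher, with a median log2 ratio of -0.28 beside 0.42 over all 221, and their summed share was 18.4% with acetaminophen, 8.37% with G-CSF added and 14.6% in untreated liver.

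All 4 red blood cell hairpins were lower with G-CSF added, beside 12.7% lower over all 221. mir-451a, which is cut by Argonaute 2 instead of Dicer and accumulates as red cells mature, had 5369 counts (4.82%) with acetaminophen, 9954 (0.908%) with G-CSF added and 0.136% in untreated liver. It was thus 5.31-fold lower (5.14 to 5.49) in the G-CSF column, which still stood above the untreated column. mir-144, transcribed together with mir-451a, had 292 counts (0.262%) with acetaminophen, 633 (0.0578%) with G-CSF added and 0.0121% untreated, 4.54-fold lower with G-CSF. mir-486 and its antisense copy mir-3107, which act in red cell formation, had 192 counts each with acetaminophen and 303 and 305 with G-CSF added, and were both lower, mir-486 6.24-fold. Reads of these 2 cannot be told apart. The entry mir-451b, on the opposite strand of mir-451a, followed it closely (5254 and 9833 counts) and may hold the same reads. Mature counts had the same order: miR-451a had 1163 counts in the acetaminophen column and 458 in the G-CSF column, and miR-144 had 58 and 15 with both arms together. The list's summed share was 0.184% in untreated liver, 5.43% with acetaminophen and 1.02% with G-CSF added, a ratio of 0.188 (0.182 to 0.194). The median log2 ratio of the list was -2.52 beside 0.42 over all 221. mir-451a and mir-144 were the only group of neighbouring hairpins, of 32 groups within 10 kb, whose members were all lower.

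The neutrophil and myeloid hairpins had ratios below 1, of unequal size. mir-223, the miRNA most typical of neutrophils and a brake on their activation, had 544 counts (0.489%) with acetaminophen, 4771 (0.435%) with G-CSF added and 0.0894% untreated. Its ratio was 0.891 (0.815 to 0.975), and both treated columns lay above the untreated one. Mature miR-223-3p lay on the other side of 1, with 51 and 142 counts and a ratio of 1.25 whose interval of 0.905 to 1.76 includes 1. mir-142, found in all blood leukocytes, had 273 counts (0.245%) with acetaminophen and 855 (0.0780%) with G-CSF added, beside 0.0395% untreated, and was 3.14-fold lower (2.73 to 3.61). Its main mature product miR-142a-3p had 53 and 13 counts, 9.05-fold lower. mir-511, a hairpin of macrophages such as Kupffer cells, had 65 and 262 counts and a ratio of 0.409, and mir-142b had 1 and 8. Of the 3 hairpins of this list that reached the limit 2 were lower and 0 higher, beside 12.7% lower over all 221. Their median log2 ratio was -1.29 beside 0.42, and the summed share of its 4 entries was 0.793% with acetaminophen, 0.538% with G-CSF added and 0.148% untreated.

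Among lymphocyte-related hairpins, mir-155, induced in activated lymphocytes and macrophages, was lower, and mir-342 and both mir-181a copies were higher. mir-155 had 118 counts (0.106%) with acetaminophen, 330 (0.0301%) with G-CSF added and 0.0480% untreated, a ratio of 0.284 (0.230 to 0.354). Its mature counts went the other way, with 0 in the acetaminophen column and 10 in the G-CSF column. mir-342 had 281 counts (0.252%) with acetaminophen, 6646 (0.606%) with G-CSF added and 1.32% untreated, 2.40-fold higher (2.13 to 2.72). mir-150, abundant in resting lymphocytes, had nearly equal shares of 0.102% and 0.113%. mir-181a-1 and mir-181a-2, near-equal in counts, were 2.27- and 2.33-fold higher from 29 and 31 counts with acetaminophen. Both reached the limit through the G-CSF column alone, which favours a higher call. With median-of-ratios factors they lay at 1.70 and 1.75. mir-181b-1 and mir-181b-2 had a ratio of 1.99 each. Of the 7 hairpins of the list 3 were higher and 1 lower, beside 27.6% higher and 12.7% lower over all 221. The mir-181a and mir-181b entries, 4 of the 7, reached the limit through the G-CSF column alone, so the count of higher calls supports nothing by itself. With median-of-ratios factors 0 of the 7 were higher and 1 was lower.

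**Figure D2:**
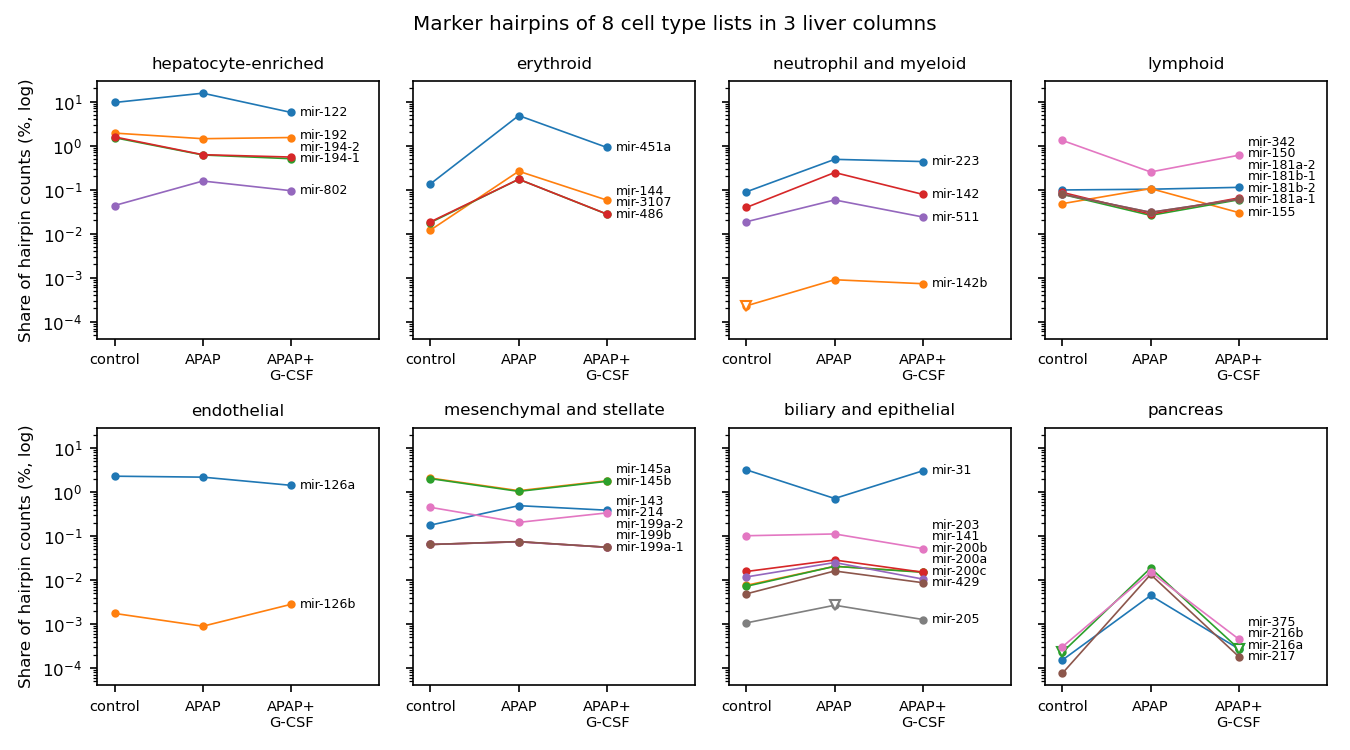
Shares of hairpin counts (y axis, %, log scale) of the marker hairpins of 8 cell type lists in untreated liver (control), with acetaminophen (APAP) and with acetaminophen plus G-CSF, 1 line per hairpin. Open triangles are 0 counts, drawn at the share of 3 counts, and labels are spread where lines coincide. All 4 erythroid hairpins and all 4 pancreas hairpins peak in the acetaminophen column, whereas mir-31 and mir-342 are lowest there.

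Hairpins of other resident cells differed in both directions. mir-126a, made by endothelial cells, had 2442 counts (2.19%) with acetaminophen and 15656 (1.43%) with G-CSF added, a ratio of 0.651 (0.624 to 0.680), beside 2.30% untreated. Its mature arms were unlike, with miR-126a-3p at 0.944 and miR-126a-5p 4.49-fold lower. All 7 hairpins of the mesenchymal and stellate list lay within 2-fold, though some of their mature miRNAs did not. In that list mir-145a, typical of smooth muscle, had a ratio of 1.68 and mir-214, typical of stellate cells, a ratio of 1.64, whereas mir-143, which is transcribed with mir-145a, had 0.789 and the 3 near-equal mir-199 entries had 0.741 to 0.751. Mature miR-145a-5p, with 140 and 717 counts, was 2.31-fold higher, and miR-199a-3p, with 25 and 15 counts, was 3.70-fold lower (ratio 0.270, 0.133 to 0.533). In the epithelial list, mir-200c and mir-203 were lower, with ratios of 0.421 and 0.464, mir-141, mir-200a and mir-200b lay at 0.746, 0.733 and 0.527, and mir-31 alone was higher, at 4.27. Of the 6 hairpins of this list that reached the limit 2 were lower and 1 higher, beside 12.7% lower and 27.6% higher over all 221. Among the 6, 4 reached it through the G-CSF column alone. The list's summed share, most of it mir-31, was 0.940% with acetaminophen, 3.18% with G-CSF added and 3.36% untreated. No hairpin typical of striated muscle or of nerve cells reached the limit of 100. In the acetaminophen column the striated muscle list summed to 20 counts and the neural list to 2, beside 99 and 5 in the far deeper G-CSF column. By share the striated muscle list stood at 0.0180% with acetaminophen and 0.00903% with G-CSF added, a ratio of 0.503 (0.309 to 0.859). The neural list stood at 0.00180% and 0.000456%, a ratio of 0.254 whose interval of 0.0416 to 2.67 includes 1.

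The let-7 family, which holds back growth genes such as those of the RAS and MYC pathways and is abundant in differentiated cells, had the largest surplus of share in the G-CSF column among the 34 lists examined. Its 14 hairpins held 9503 counts (8.54%) with acetaminophen, 209405 (19.1%) with G-CSF added and 12.1% in untreated liver, a ratio of 2.24 (2.19 to 2.29). Of the 13 that reached the limit 6 were higher, beside 27.6% over all 221, and 0 were lower. let-7e among the 6, and let-7k and mir-98, reached it through the G-CSF column alone, so the count supports nothing by itself. All 13 had a ratio above 1, though mir-98, at 1.10, lay below 1 under 4 of the other scalings. let-7a-1 had 1934 counts (1.74%) with acetaminophen, 45864 (4.19%) with G-CSF added and 2.61% untreated, 2.41-fold higher (2.30 to 2.52). let-7d, from the same transcript on chromosome 13, had 323 counts (0.290%), 8992 (0.821%) and 0.616% untreated, 2.83-fold higher (2.53 to 3.17). let-7a-2, let-7c-1, let-7c-2 and let-7e were 2.56-, 2.30-, 2.29- and 2.23-fold higher, and let-7f-1, let-7g, let-7i and let-7b lay just under the limit at 1.94, 1.81, 1.83 and 1.79. The median log2 ratio of the family was 0.97 beside 0.42 over all 221. With median-of-ratios factors 1 of the 13, let-7d, stayed past the limit.

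Some let-7 hairpins differed in ratio from neighbours in the same transcripts, a contrast between hairpins of the same columns that no scaling alters. let-7c-1 was 2.30-fold higher while its neighbour mir-99a, from the same host gene, had a ratio of 0.932. let-7a-2 was 2.56-fold higher beside mir-100 at a log2 ratio of -0.10, and let-7e 2.23-fold higher beside mir-125a at 1.36, with mir-99b of the same cluster at 2.77. Because let-7c-1 and let-7c-2, and likewise mir-99a and mir-100, had near-equal counts, values of single copies are uncertain. For mir-99a and mir-100 the mature counts gave a smaller contrast and another direction. By those counts miR-99a-5p was 2.33-fold (1.55 to 3.63) and miR-100-5p 2.38-fold (1.58 to 3.71) higher, beside let-7c-5p at 3.49-fold. For let-7e-5p and miR-125a-5p, at 3.67 and 1.45, the contrast was not smaller than between their hairpins. There miR-99b-5p was at 2.40, the same direction as its hairpin.

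mir-31, the most abundant of the strongly higher hairpins, had 798 counts (0.717%) with acetaminophen, 33575 (3.06%) with G-CSF added and 3.21% in untreated liver. It was 4.27-fold higher (3.98 to 4.59) with G-CSF, at nearly the untreated level, and its mature counts of 63 and 712 gave 5.09-fold. mir-31 is found in epithelia, and it stayed past the limit under every scaling tried, at 3.21 to 4.30. mir-34a, a direct target gene of p53 that halts the cell cycle, had 247 counts (0.222%) with acetaminophen, 8294 (0.757%) with G-CSF added and 0.632% untreated, 3.41-fold higher (3.01 to 3.89). Its relatives mir-34b and mir-34c had 0 counts with acetaminophen and 32 and 41 with G-CSF added, and the other p53-linked hairpins, mir-192, mir-194-1, mir-194-2 and mir-215, lay within 2-fold.

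The hairpins of miR-103 and miR-107, which lie in introns of the pantothenate kinase genes Pank3, Pank2 and Pank1 and dampen insulin signalling, were all higher. Each of the 3 entries had 559 counts (0.502%) with acetaminophen, 14624 to 14630 (1.33% to 1.34%) with G-CSF added and 2.27% untreated, 2.66-fold higher (2.44 to 2.90). Their counts were so alike that they amount to 1 measurement. mir-22, which acts on metabolism and heart muscle growth, had 1045 counts (0.939%), 28045 (2.56%) and 0.833% untreated, 2.73-fold higher (2.56 to 2.90). Here the G-CSF column was high and the acetaminophen column close to the untreated one, unlike mir-31 and mir-103-1, for which the acetaminophen column was the low one.

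mir-191, abundant in many tissues, had 955 counts (0.858%) with acetaminophen, 23944 (2.18%) with G-CSF added and 3.52% untreated, 2.55-fold higher (2.39 to 2.72), while mir-425 of the same transcript was at 1.63. mir-221 and mir-222, a pair on chromosome X that favours cell cycle entry by repressing p27, were 2.49-fold (2.21 to 2.82) and 2.37-fold (2.01 to 2.80) higher. mir-221 had a share of 0.247% with acetaminophen, 0.616% with G-CSF added and 0.316% untreated. mir-139 (406 and 9446 counts), mir-652 (184 and 4203 counts) and mir-345 (182 and 4803 counts) were 2.36-, 2.32- and 2.68-fold higher, and each was lowest in the acetaminophen column, with untreated shares of 1.17%, 0.473% and 0.403%. With median-of-ratios factors mir-34a, mir-22 and mir-345 stayed past the limit, whereas mir-103-1, mir-191, mir-221, mir-222, mir-342, mir-139 and mir-652 lay just under it, at 1.74 to 1.99. In the clusters of miR-23, miR-24 and miR-27, which act in vessels and fat metabolism, all 6 hairpins had ratios of 1.39 to 1.89, none past the limit. Their mature miRNAs were past it by share, with miR-23a-3p at 2.95, miR-23b-3p at 3.04, miR-24-3p at 2.15, miR-27a-3p at 2.25 and miR-27b-3p at 2.26.

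Hairpins of the imprinted Dlk1-Dio3 region on chromosome 12, a long array of miRNAs made from the maternal chromosome and low in adult liver, had few counts in the acetaminophen column apart from mir-380. The 47 hairpins of the list had 555 counts (0.499%) with acetaminophen and 3572 (0.326%) with G-CSF added, a ratio of 0.654 (0.598 to 0.716). Of the 555 counts 456 belonged to mir-380, which sets the direction of this sum. Without mir-380, a split chosen after its value was seen, the other 46 had 99 counts (0.0889%) with acetaminophen, 3219 (0.294%) with G-CSF added and 0.162% in untreated liver. That was 3.30-fold higher (2.70 to 4.08), the opposite direction to the whole list, with 22 of the 46 at 0 counts in the acetaminophen column and 4 in the G-CSF column, which is far deeper. mir-541 had 2 counts with acetaminophen, 379 with G-CSF added and 344 in untreated liver, a ratio of 19.2 with the wide interval of 5.29 to 160. mir-409 had 2, 242 and 221 counts, a ratio of 12.3 (3.37 to 102), and mir-494 had 8, 426 and 233 counts, 5.41-fold higher (2.72 to 12.6). mir-329 had 0 counts with acetaminophen and 126 with G-CSF added, at least 4.27-fold higher when 3 counts are taken as the floor of the acetaminophen column. Of the 14 hairpins of the list that reached the limit 13 did so in the G-CSF column alone, so their number of calls is not evidence of a direction. Other hairpins with few counts in the acetaminophen column were mir-700 (1 count with acetaminophen, ratio 19.8, 3.51 to 786), mir-1981 (3 and 252, ratio 8.53, 2.89 to 41.7) and mir-1971 (3 and 219, ratio 7.42, 2.50 to 36.2).

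The hairpins with the largest ratios in the other direction were entries with hardly any mature counts. mir-615 had 154 counts with acetaminophen, 9 with G-CSF added and 18 in untreated liver, 168-fold lower in share (86.5 to 375). mir-3066, in an intron of Nol10, had 201, 25 and 20 counts, 79.2-fold lower (52.1 to 125). mir-3960 was 15.6-fold, mir-380 12.7-fold, mir-6481 10.3-fold and mir-1948 9.89-fold lower. All 6 were highest in the acetaminophen column among the 3 liver columns, and their mature counts there were 0 for 5 of them and 4 for mir-1948. For mir-380 the mature table had 0 counts with acetaminophen, 12 with G-CSF added and 45 in untreated liver, so that its hairpin and mature counts ran in opposite directions. Of the 28 lower hairpins, 16 had fewer than 20 mature counts in each treated column and could not be checked in the mature table. mir-335, from an intron of the imprinted gene Mest, had 120 and 201 counts and was 5.88-fold lower, with 16 and 8 mature counts. mir-2137 had 720 counts (0.647%) with acetaminophen, 2285 (0.209%) with G-CSF added and 0.0200% untreated, a ratio of 0.322 (0.296 to 0.351), and its mature counts of 72 and 71 gave 0.444. The entry mir-6236 was higher, with 137 counts (0.123%) and 6535 (0.596%), a ratio of 4.85 (4.09 to 5.78), and had no mature counts in either column.

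Most hairpins of several families with known parts in liver injury and repair lay within 2-fold. mir-21a, induced in injured and regenerating liver, had 1881 counts (1.69%) with acetaminophen and 18858 (1.72%) with G-CSF added, a ratio of 1.02 (0.971 to 1.07), and 0.466% untreated. Both treated columns were thus alike by share and above the untreated one. The 4 hairpins of miR-29, which restrains collagen genes, had ratios of 0.550 to 0.954 and a summed share of 3.47% and 2.92%, beside 1.73% untreated. mir-146a and mir-146b, brakes on inflammatory signalling that could not be told apart, had 0.668 and 0.672. In the miR-17-92 family of proliferation-linked miRNAs, 3 of 15 hairpins were higher, a smaller share than the 27.6% over all 221, and all of them were miR-92 entries. mir-92a-1, mir-92a-2 and mir-92b had near-equal counts (75, 67 and 66 with acetaminophen) and ratios of 2.44 to 2.50, reached the limit through the G-CSF column alone, and lay at 1.83 to 1.88 with median-of-ratios factors. mir-17, mir-19b-1 and mir-20a of the same cluster as mir-92a-1 lay at 0.748, 0.794 and 0.757 by share. The families of miR-15, miR-148, miR-26 with miR-101, miR-378 and miR-99 with miR-125 together held 1 lower hairpin (mir-497, 0.392) and 2 higher ones (mir-378d, 2.46, and mir-99b, 2.77) among 28. Over all 221, 12.7% were lower and 27.6% higher. In the miR-15 family 3 members reached the limit through the G-CSF column alone, and 1 each in those of miR-378 and of miR-99 with miR-125.

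The mature table, counted apart and 2.22 times deeper in the G-CSF column, gave a check on direction. Among 121 mature miRNAs with 20 or more counts in either column, 44 (36.4%) were higher, 13 (10.7%) lower, and the median log2 ratio was 0.62. With the columns scaled by TMM factors (trimmed mean of M-values) the numbers were 23 and 26, so 77.2% of calls were higher by share and 46.9% by TMM. Of the 134 hairpins with 20 or more mature counts, 43 were past 2-fold as hairpins. In 39 of these the mature ratio was on the same side of 1, and in 34 it was past 2-fold the same way. Summed by seed, the 9 let-7 mature miRNAs with the seed GAGGUAG had 1239 counts (6.29%) with acetaminophen and 8520 (19.5%) with G-CSF added. The seed GCAGCAU of miR-103 and miR-107 was 4.22-fold higher, the seed GGCAGUG of miR-34a-5p and miR-34b-5p 5.25-fold, miR-191-5p 3.45-fold and the seed GCUACAU of miR-221 and miR-222 2.40-fold. Seeds were taken only from mature miRNAs with a RefSeq sequence, which 104 of the 121 had. Among those left out were miR-122-5p, at a ratio of 0.316, and miR-145a-5p, at 2.31. Of the 72 seeds so covered with 20 or more counts, 27 were at least 2-fold higher and 8 at least 2-fold lower. The lowest were those of miR-144-3p, 11.5-fold lower, and miR-142a-3p.

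**Figure D3:**
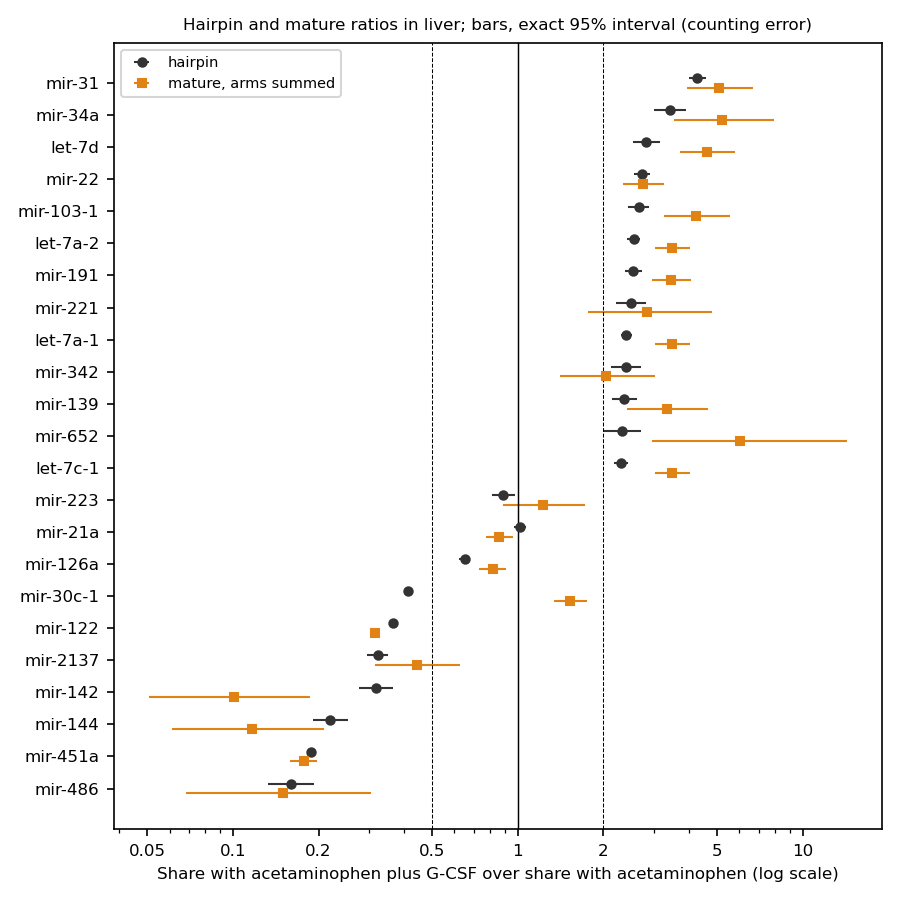
Ratio of shares, acetaminophen plus G-CSF over acetaminophen (x axis, log scale), for 23 hairpins (black circles) and for their mature miRNAs with both arms summed (orange squares), bars giving the exact 95% interval of counting error. The solid line marks a ratio of 1 and the dashed lines a 2-fold difference. Hairpin and mature values lie on the same side of 1 for mir-31 (4.27 and 5.09) and mir-122 (0.365 and 0.317) but on opposite sides for mir-30c-1 (0.412 and 1.53).

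The 4 hairpins past 2-fold with a mature ratio on the other side of 1 were mir-5099, mir-6238 and both hairpins of miR-30c, the abundant ones among them. mir-30c-1 had 3946 counts (3.54%) with acetaminophen, 16022 (1.46%) with G-CSF added and 1.61% untreated, 2.42-fold lower (2.34 to 2.51), and the near-equal mir-30c-2 was 2.39-fold lower. Its mature counts were 302 with acetaminophen and 1025 with G-CSF added, 1.53-fold higher (1.34 to 1.74). The other miR-30 hairpins, of a family abundant in hepatocytes, lay within 2-fold, with mir-30a, mir-30d and mir-30e at 1.34, 1.35 and 1.35 and mir-30b at 0.734.

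The use of the 2 hairpin arms, which needs no scaling between columns, was alike. Of 60 miRNAs with both arms listed and 20 or more counts in each column, 58 kept the same major arm, and 3 had Wilson 95% intervals that did not overlap. The 5p arm of miR-126a made up 17.8% (14.6 to 21.4, 87 of its counts) with acetaminophen, 4.85% (3.62 to 6.47, 43 counts) with G-CSF added and 4.27% in untreated liver. For miR-31 the 5p arm made up 88.9%, 99.2% and 99.3%, and for let-7b 94.6%, 99.8% and 98.0%. In all 3 the acetaminophen column lay farthest from the other two.

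Cultured hepatocytes given 20 mM acetaminophen with or without G-CSF at 1 µg/ml were measured in the same tables, and their doses cannot be matched to those of the mice. Of 100 hairpins with 100 or more counts in at least 1 column of each material, 24 (24%) were higher and 15 (15%) lower with G-CSF added in liver, and 3 (3%) were higher and 13 (13%) lower in hepatocytes. The 24 higher in liver were within 2-fold in hepatocytes for 22 and lower for 2, mir-222 at 0.293 and mir-342 at 0.414. The 15 lower in liver were within 2-fold for 13 and higher for 2, the hairpins of miR-30c. mir-31, mir-34a and let-7a-1 had ratios of 0.571, 0.594 and 0.654 in hepatocytes, and mir-122 had 0.600. mir-451a had 6 and 2 counts in the hepatocyte columns and mir-144 had 4 and 1, so red blood cell hairpins were nearly absent there. By contrast, 4 of the hairpins with hardly any mature counts were abundant in treated hepatocytes: mir-6481 with 10681 and 5905 counts, mir-1948 with 7124 and 3611, mir-380 with 3843 and 3067 and mir-3066 with 2096 and 1268. Their ratios there, 0.713, 0.654, 1.03 and 0.780, were all within 2-fold. No replicates exist in either material, and the difference between materials was not tested.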

How the data were processed

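Per the labels' protocols, total RNA of mouse liver was isolated with a Norgen kit and small RNA libraries were made for Ion Torrent sequencing. The authors deposited estimated counts per hairpin and per mature miRNA, not all whole and not scaled to depth, with 1 column per condition per the file headers. The sources used here name no aligner, annotation release or genome build. Counts were rounded to whole numbers, and each was divided by its column total (12 mapped columns per table). The ratio of 2 shares was given an exact conditional (Clopper-Pearson) 95% interval (scipy 1.17.1), which covers counting error only; no test is possible without replicates. The interval code was tested on simulated data. TMM factors (edgeR 4.0.16) and median-of-ratios size factors (DESeq2 1.42.0) served as alternative scalings only.

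Named hairpins were mir-122, mir-223, the 10 most abundant, up to 12 per direction ordered by the interval limit nearest to 1, the 3 on each side of the count limit, and members of the 34 lists. The members and lists were chosen with earlier results of these data known. mir-486 and mir-3107 stand for miR-486a and miR-486b, set after the tables were seen. RefSeq held a hairpin for 185 of the 221 (83.7%) and a mature sequence for 104 of the 121 mature miRNAs, and host genes came from GENCODE annotation. A count of 0 was taken as at most 3 counts, a share of 0.00270% in the acetaminophen and 0.000274% in the G-CSF column.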

Additional observations from a re-analysis of the deposited data

Results flagged for a closer look

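The hairpins of miR-30c differed between liver and cultured hepatocytes in the direction of the G-CSF comparison. For mir-30c-1 the log2 ratio was -1.28 in liver and 1.08 in hepatocytes, a difference of -2.36, and for mir-30c-2 it was -1.26 and 1.08, a difference of -2.34. They have near-equal counts and count as 1 observation, and with 1 column per condition the difference was not tested.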

How the results depend on the processing

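No paired analysis was possible because the deposited columns combine the libraries of a condition, and leaving out a library was not run for the same reason. Higher hairpins numbered 61 by share, 29 with median-of-ratios factors, 40 with totals that leave out mir-122 and the red blood cell hairpins (an alternative chosen after seeing the data), 19 with 100 counts required in both columns, 33 with a share of 0.05% in either column and 22 at a 3-fold limit. Lower hairpins numbered 28 by share, 18 at a 3-fold limit and 160 with only 1 count required in both columns. That last setting admits a rare hairpin only if it was seen in the far shallower acetaminophen column. It thus favours lower calls, and nothing is read from the 160. TMM factors gave 47 and 32 (a shift of -0.24 log2), and totals without the most abundant entry 53 and 32. Higher mature miRNAs numbered 44 by share, 23 with TMM factors, 21 with median-of-ratios factors and 23 without the most abundant entry. Lower mature miRNAs numbered 13 by share, then 26, 28 and 25, with 5 at 50 counts in either column and 62 at 1 count in both. The acetaminophen column is the shallower one here too, so the 1-count setting again favours lower calls. Of the 61 higher hairpins, 47 remained with TMM and 29 with median-of-ratios factors. All 28 lower ones remained under both, which was fixed in advance because both factors shift every ratio down. In the mature table the ratio was 1.53 for mir-30c-1, 1.54 for mir-30c-2 and at least 1.80 for mir-380. For mir-409 and mir-700, with 0 mature counts with acetaminophen, the bounds of 0.901 and 0.451 set no direction. The causes were not tested. The depth of the acetaminophen column limits all hairpins under 10 counts there.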

Other observations

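Lists of repeat-like and mirtron-type entries had few counts in the acetaminophen column. The 81 hairpins of the Sfmbt2-type repeat cluster, named after the gene whose intron holds the rodent array, summed to 108 counts with acetaminophen and 885 with G-CSF added, a ratio of shares of 0.832 (0.681 to 1.03). The 202 mirtron-type hairpins, chosen by a range of miRNA names and not by their structure, summed to 67 and 358 counts, a ratio of 0.543 (0.417 to 0.716). Of these hairpins, 167 had 0 counts with acetaminophen and 103 in the far deeper G-CSF column. Their mature counts of 15 and 59 lay on the other side of 1, with a ratio of 1.77 (0.993 to 3.36). The 7 entries that resemble SINE repeats had 17 and 26 counts in all, a ratio of 0.155 (0.0811 to 0.305). The hypoxia-induced hairpin mir-210 had 31 and 269 counts, a ratio of 0.881 (0.606 to 1.32), and mir-130a, found in vessels and blood cells, had a ratio of 1.52.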
